A study of Mus musculus with 2 samples.

Results

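Nnat (neuronatin) and Blcap (bladder cancer associated protein) are a nested gene pair on mouse chromosome 2. Nnat lies whole within an intron of Blcap, on the opposite strand. The pair was taken by name from the deposited catalog of known imprinted genes and makes up 2 of its 128 entries. The catalog marks Nnat as expressed from the paternal allele and lists no allele for Blcap. Whole brains of F1 embryos at stage E17.5, days of gestation, were profiled by RNA-Seq, with 1 library per cross and, in the study's methods, 1 embryo per library. BxC denotes an embryo of a C57BL/6J mother and a CastEi/J father (the strain written CAST/EiJ in the study), and CxB the reciprocal. The CxB embryo was male, and the sex behind the deposited BxC library is not given in the sources used here. Every value below therefore describes 2 single libraries, no test between the crosses was possible, and the intervals cover counting error only. The alignments carry no base calls, so the parental allele of a read was not analysed here.

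Neuronatin is a small proteolipid of the endoplasmic reticulum (ER) membrane. It resembles phospholamban and sarcolipin, the short membrane peptides that inhibit the SERCA calcium pumps, and is known for its high level in developing brain. Imprinted genes are transcribed mainly from the copy inherited from 1 parent, and Nnat is a known case of an imprinted gene within the intron of a host gene. Blcap encodes a short conserved membrane protein, whose whole reading frame lies in its last exon.

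Positions are those of mm9 with the GENCODE vM1 annotation. Nnat (ENSMUSG00000067786.9) occupies chr2:157385814-157388258 on the plus strand. Its exon 1 (183 bases) carries the 5′ untranslated region (UTR) and the first 72 coding bases, its exon 2 (81 bases) is all coding, and its exon 3 (981 bases) holds the last 93 coding bases with the stop and a 3′ UTR of 888 bases. The Nnat introns named below are those of the transcript Nnat-001. Merged over all annotated transcripts, Nnat exons span 1829 bases and so cover part of these introns. The level of Nnat is counted over the merged exons. Blcap (ENSMUSG00000067787.4) occupies chr2:157382098-157397010 on the minus strand. Its exon 2 (1966 bases) lies on 1 side of Nnat and its exon 1 on the other, 114 bases long in Blcap-001 and 142 in Blcap-002, whose donor lies 28 bases further into the intron, and an alternative exon of the transcript Blcap-004 (293 bases) ends 70 bases from the start of Nnat. The catalog entry for Nnat has 2 blocks and leaves out exon 2, and the entry for Blcap is a single block listed on the plus strand, against the minus strand in GENCODE.

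Nnat exon 2 is shown whole because its use distinguishes the main forms of the message. Capitals mark the exon, between the last 2 bases of intron 1 and the first 2 of intron 2, at chr2:157386947-157387031 on the plus strand.
Nnat exon 2: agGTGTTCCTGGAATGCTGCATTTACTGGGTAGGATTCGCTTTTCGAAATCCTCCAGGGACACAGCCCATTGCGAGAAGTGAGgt
With its 81 bases the exon keeps the reading frame, and it adds 27 codons. The message codes for 81 amino acids with it and for 54 without it. The sequences across the 3 joins counted below are shown next, with the second exon in capitals.
Nnat exon 1 to exon 2: cgcgtgctgctgcagGTGTTCCTGGAATGC
Nnat exon 2 to exon 3: attgcgagaagtgagGTGTTCAGGTACTCC
Nnat exon 1 to exon 3: cgcgtgctgctgcagGTGTTCAGGTACTCC
Exons 2 and 3 begin with the same 6 bases, GTGTTC, so a spliced read with a block that ends within them cannot tell the exons apart. The 2 joins found for Blcap, which share exon 2 and differ in the donor of exon 1, read as follows on the minus strand.
Blcap-001, exon 1 to exon 2: tggtggggctcgcagGATCCCTGCTGCCTT
Blcap-002, exon 1 to exon 2: gcccgcctgggcaggGATCCCTGCTGCCTT
All of these introns begin with GT and end with AG. The 70 bases that separate the alternative exon of Blcap from Nnat, at chr2:157385744-157385813 on the plus strand, are shown as the stretch between oppositely directed transcripts.
Gap between Blcap-004 and Nnat: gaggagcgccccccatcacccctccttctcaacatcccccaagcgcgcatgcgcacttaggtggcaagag

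There were 128944754 reads in BxC and 109719746 in CxB, each 36 bases long, and 6.467% and 6.202% of them were spliced. All 8 brain markers were read in both libraries, from 13.98 to 974 reads per kilobase of exon per 1000000 reads (RPKM) in BxC and from 13.3 to 840 in CxB, led by the neuronal tubulin Tubb3. The pituitary hormone genes Gh and Cga had 0 reads in both libraries, which allows up to 3 reads each, and Prl had 6 and 0. Pomc had 220 and 184 reads and the pituitary factor Pou1f1 154 and 178, and the 5 pituitary markers summed to 2.42 and 2.58 RPKM. The 3 liver markers summed to 0.275 and 0.767 RPKM, the 3 muscle markers to 3.52 and 3.47, and the 4 blood markers to 279 and 227. The reads came from both strands of annotated genes. Over protein-coding genes that overlap no gene of the other strand, 42.9% of reads in BxC (9214 genes) and 42.4% in CxB (9055 genes) lay on the strand of the transcript. The study's methods describe a dUTP protocol that retains the strand, but strand could not separate Nnat from Blcap in these files, and reads were given to a gene by position.

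By reads over its exons, Nnat was among the most abundant messages of both brains. Its exons collected 428600 reads in BxC and 325234 in CxB, that is 0.332% and 0.296% of all reads. Per length, Nnat stood at 1817 RPKM in BxC and 1621 in CxB, the 4th of 22380 protein-coding genes in each. The mitochondrial genes mt-Nd1 and mt-Cytb and the tubulin gene Tuba1a stood above it. This was 334 and 298 times the median RPKM of protein-coding genes that had 100 or more reads in both.

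Blcap had far fewer reads than the gene in its intron. Blcap exons, none of which overlaps an exon of Nnat, collected 29050 reads in BxC and 23275 in CxB, or 74.0 and 69.7 RPKM. The gene ranked 373rd and 394th among protein-coding genes, at 13.6 and 12.8 times their median. Nnat thus exceeded its host 24.6 times in BxC and 23.3 times in CxB on the RPKM scale. This excess rests on Nnat exon 3, which 96.7% and 96.3% of Nnat reads touched. Spliced reads went the other way, with 1025 and 849 in Nnat against 1610 and 1270 in Blcap. The genes nearest to Nnat in level over both libraries were Tuba1a, mt-Cytb and Tubb2b, another tubulin gene, at Euclidean distances of 0.31, 0.88 and 1.09 in log2 RPKM. For Blcap they were Paip2, an inhibitor of the poly(A)-binding protein, Cox7a2, a subunit of cytochrome c oxidase, and Fam57b, at distances of 0.0037, 0.013 and 0.019. With only 2 libraries, this likeness is one of level alone.

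Both genes were slightly lower in CxB than in BxC. Nnat stood at 3324 reads per 1000000 reads (RPM; Poisson interval 3314 to 3334) in BxC and 2964 (2954 to 2974) in CxB, a log2 ratio of CxB over BxC of -0.17 (-0.17 to -0.16). Blcap stood at 225 RPM (223 to 228) in BxC and 212 (209 to 215) in CxB, a log2 ratio of -0.09 (-0.11 to -0.06). These intervals leave out 0 but hold no variation between embryos. The median ratio of the 15427 genes that had 100 or more reads in both libraries was -0.0011, with quartiles at -0.10 and 0.10. By this measure 14.4% of genes lay below Nnat and 26.9% below Blcap, so neither gene stood at the margin. Of the 2 genes, 0 reached a 2-fold difference. Over all genes 0.136% did, with 0.0713% higher and 0.0648% lower in CxB. Among the 43 genes that had 100000 or more reads in both libraries the ratios ran from -0.67 to 0.45 with a median of -0.03, and 6 of them lay below Nnat. In whole brains, fewer cells of a type and less RNA per cell cannot be told apart. When each line of the files was counted once, the direction turned for Blcap (0.11) and remained for Nnat (-0.16). Counting distinct read positions also turned it for Blcap (0.10), with 45.9% and 42.1% of the possible starts of its exon 2 in use. For Nnat that count is near its ceiling, with 92.8% and 91.7% of the possible starts of exon 3 in use, so it gives no direction.

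**Figure D1:**
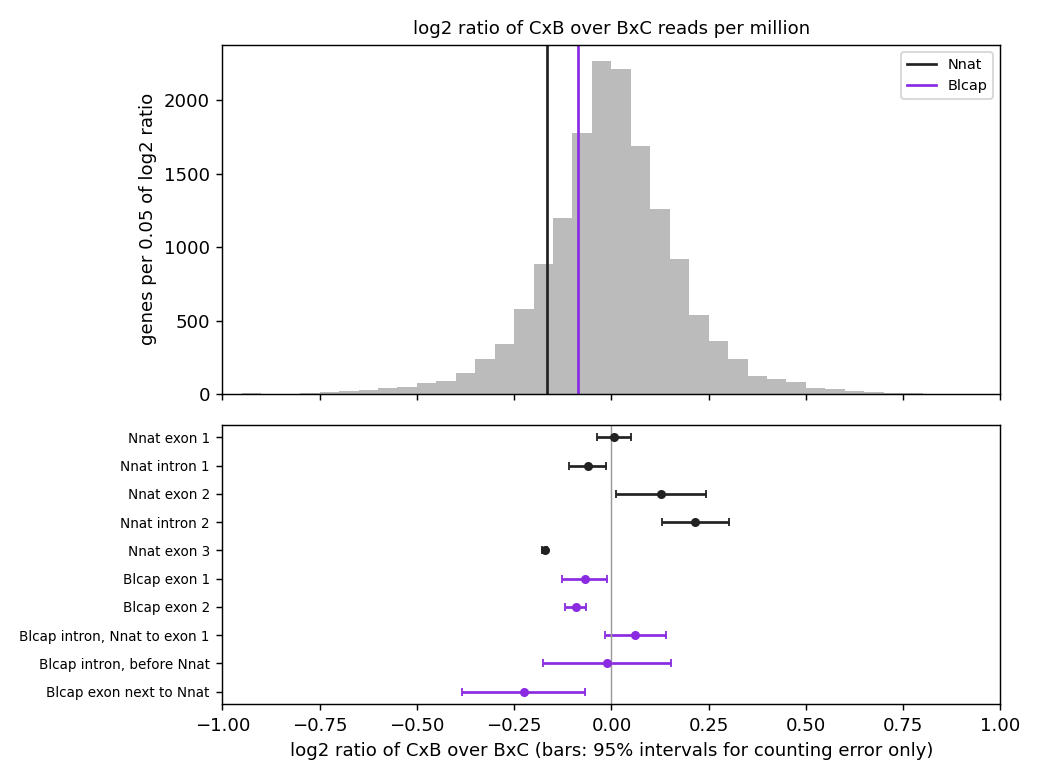
The upper panel counts the 15427 genes with at least 100 reads in each library by their log2 ratio of CxB over BxC RPM, drawn from -1 to 1, with vertical lines for Nnat (-0.17) and Blcap (-0.09). The lower panel gives the same ratio for parts of both genes, with 95% intervals for counting error only, and exon 3 is the lowest of the 5 Nnat parts.

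The difference between the libraries was not shared by all parts of Nnat. Exon 3 had a ratio of -0.17 (-0.18 to -0.16), while exon 1 stood at 0.01 (-0.04 to 0.05). Exon 2 (0.13, 0.01 to 0.24) and intron 2 (0.22, 0.13 to 0.30) were higher in CxB, and intron 1 was at -0.06 (-0.11 to -0.01). The value for the gene is that of exon 3, since 96.7% of Nnat reads in BxC and 96.3% in CxB touched it. Within exon 3, all 10 successive windows of up to 100 bases were lower in CxB relative to the library total, with log2 ratios from -0.32 to -0.02. The parts of Blcap were not alike either. Exon 1 stood at -0.07 (-0.13 to -0.01) and exon 2 at -0.09 (-0.12 to -0.06), but within exon 2 the coding bases were at -0.25 (-0.30 to -0.21), the 5′ UTR bases at -0.14 (-0.20 to -0.08) and the 3′ UTR at 0.05 (0.01 to 0.09).

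Reads over Nnat were piled on its last exon. In BxC the mean depth, the number of reads over a base, was 1706 in exon 1, 406 in exon 2 and 15189 in exon 3. In CxB it was 1452, 377 and 11476. Exon 3 was thus covered 8.90 and 7.90 times as deeply as exon 1, and 37.4 and 30.4 times as deeply as exon 2. The rise came within exon 3 itself, whose 3′ UTR was 5.38 and 5.81 times as deep as its coding part. The deepest of the 10 windows, 700 to 800 bases into the exon, reached a mean of 36918 in BxC and 26428 in CxB, against 3050 and 2144 in the first window. Even so, the coding part of exon 3 was 7.53 and 5.68 times as deep as exon 2, which is next to it in the full message. By mean depth, exon 2 was only 1.43 and 1.30 times as deep as intron 2, which is partly exon in another annotated transcript. The medians stood further apart, at 432 against 105.5 in BxC and 357 against 126 in CxB.

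**Figure D2:**
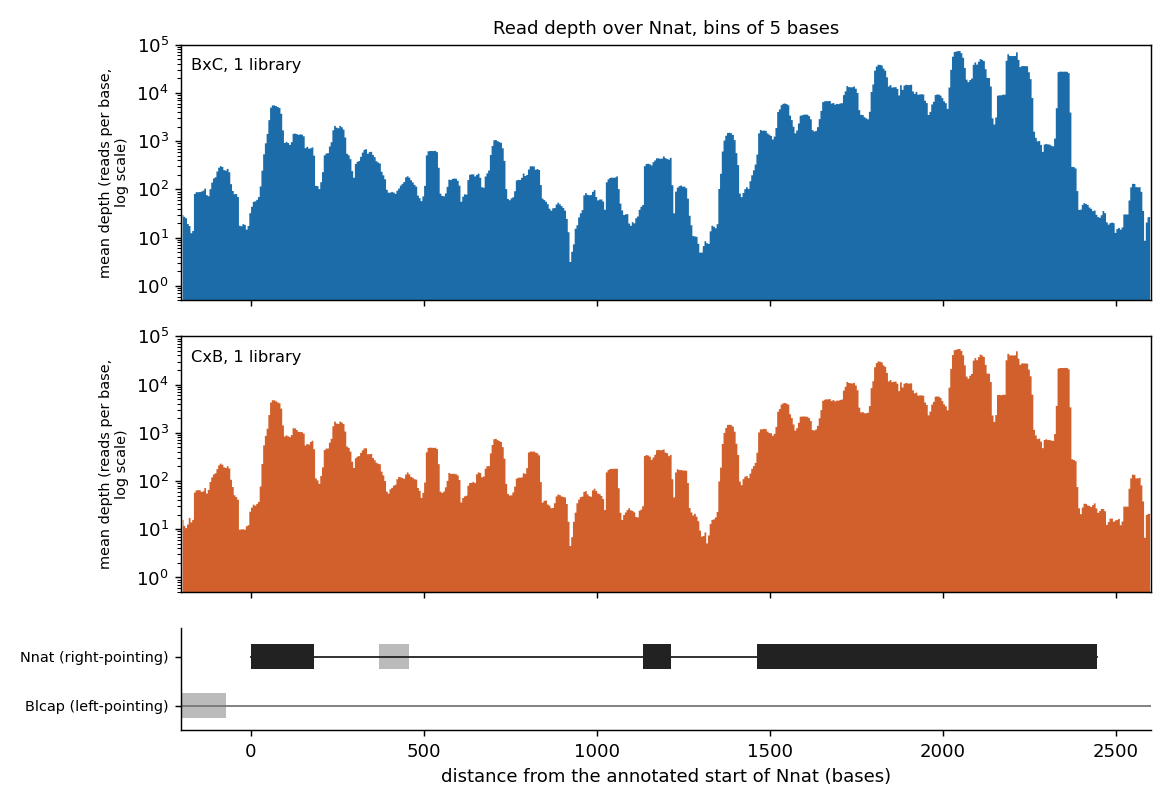
Mean read depth in bins of 5 bases over Nnat, on a log axis, against the distance from the annotated start of the gene, with exons of Nnat (black), its cassette exon (grey) and the alternative exon of Blcap (grey) drawn below. Both libraries share the same peaks, with exon 3 at a mean depth of 15189 in BxC and 11476 in CxB and exon 2 at 406 and 377.

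The peaks within exon 3 recurred from one library to the other. The most used start, a minus-strand read at chr2:157387995-157388030 in the 3′ UTR, held 26923 reads in BxC and 18201 in CxB, or 6.52% and 5.83% of the reads inside the exon. The 10 most used starts held 25.3% and 25.1%, and the 39 and 38 most used of 1892 possible starts held as many reads as all the others together. Over those starts the read numbers of the libraries had a Spearman correlation of 0.9396, and all 10 of the most used starts were shared. These starts share the exon, its base composition and the protocol, so the correlation is a description. In the same 43 abundant genes, the share of the most used start was 3.60% (BxC) and 3.45% (CxB) at the median. Nnat, at 6.30% and 5.62% of all its reads, was exceeded by 9 and 13 of them. Blcap exon 2 showed the same kind of profile at a lower depth, with 5.77% and 4.83% of its reads at 1 start, a correlation of 0.594 over 3862 possible starts, and 9 of the 10 most used starts shared.

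More reads lay on the strand opposite to the transcript in both genes. Over Nnat exons 38.2% of reads (38.0 to 38.3) in BxC and 37.6% (37.4 to 37.7) in CxB lay on the strand of the transcript. Over Blcap exons it was 35.3% (34.8 to 35.9) and 35.8% (35.2 to 36.4). With each line counted once the shares were 50.3% and 50.4% for Nnat and 51.7% and 50.7% for Blcap, but successive lines of a start alternate between strands, which holds that count near an even split. Among the genes that overlap no gene of the other strand, the middle 95% ran from 30.8% to 56.8% in BxC and from 30.6% to 55.7% in CxB, so both members lay within that range.

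The reading frame of Blcap was covered unevenly. Mean depth in BxC was 1242 over the coding bases of exon 2, 850 over the 5′ UTR bases before them and 248 over the 3′ UTR. In CxB it was 882, 666 and 218. The coding part was thus 5.003 and 4.05 times as deep as the 3′ UTR, the reverse of the order in Nnat. The medians kept this order of coding part and 3′ UTR with a smaller gap. They were 197 over the coding bases against 133 over the 3′ UTR in BxC and 171 against 131 in CxB. By medians the 5′ UTR bases were the deepest, at 742.5 and 515.5. Of the reads over the coding bases, 97.5% in BxC and 96.0% in CxB lay on the plus strand, opposite to the gene. The most used start of the exon, at chr2:157383837-157383872 in BxC, falls there, and the depth within the coding part ranged from 0 to 8199 and from 0 to 5602. Exon 1, on the far side of Nnat, was, over the 142 bases of its longer form, 2.52 and 2.58 times as deep as exon 2, with 13.3% and 17.0% of its reads on the plus strand.

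**Figure D3:**
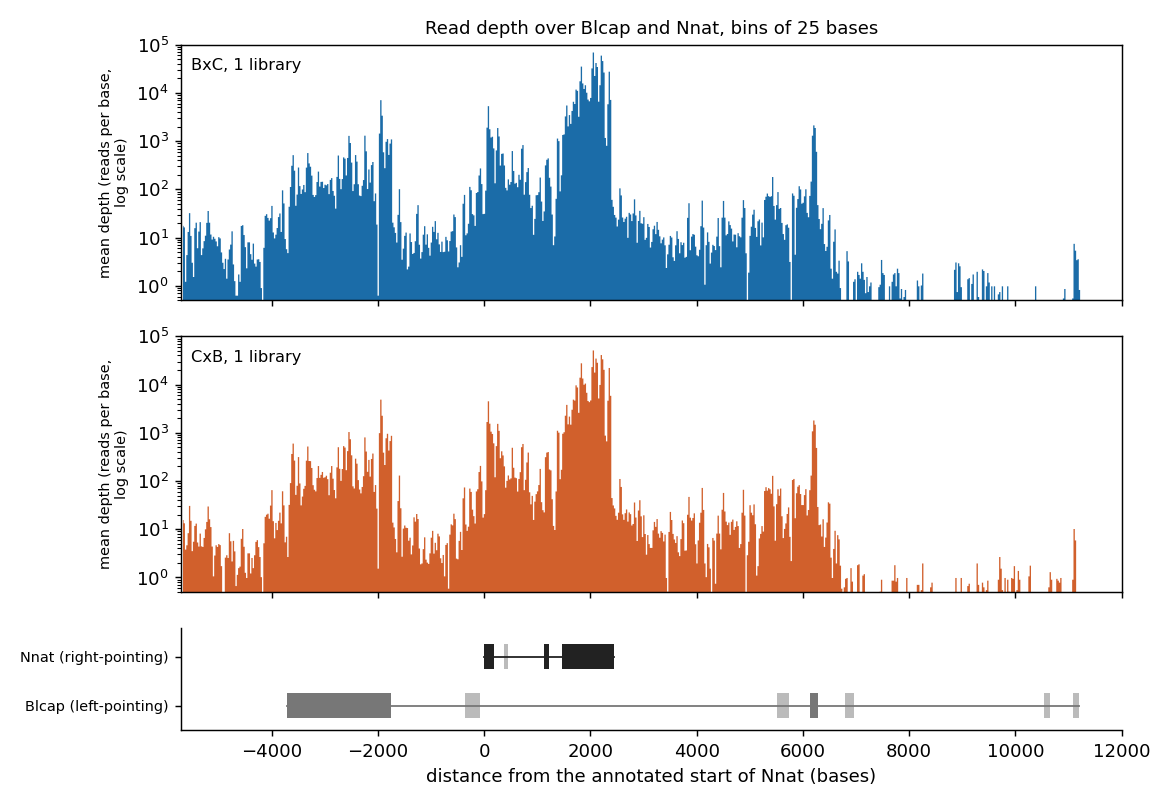
Mean read depth in bins of 25 bases over Blcap and Nnat, on a log axis with 0 drawn at the floor, against the distance from the annotated start of Nnat. Main exons are dark and exons of other annotated transcripts light. Nnat exon 3 rises above both Blcap exons in both libraries, and the intron beyond Blcap exon 1 is nearly empty.

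The Blcap intron held far fewer reads than the gene inside it. Between exon 2 of Blcap and its alternative exon, before Nnat, the intron held 423 reads per kilobase (389 to 459) in BxC and 344 (313 to 377) in CxB, counting reads that lie wholly inside. Between the end of Nnat and Blcap exon 1 it held 731 (704 to 760) and 648 (622 to 674). The intron after Nnat was thus 1.74 and 1.88 times as deep as the intron before it, and its mean depth of 26.5 and 23.5 was still 16.3 and 14.7 times lower than that of Blcap exon 2. In the middle of it, with 1 kb left out beside Nnat and beside the exon of the short transcript Blcap-003, the levels were 351 and 378 reads per kilobase. These lie below the whole intron before Nnat in BxC (423) and above it in CxB (344). The window 2 to 3 kb after the end of Nnat, in no annotated exon, held more, at 895 and 765 reads per kilobase. Most of this window was left out of the middle as lying beside the exon of Blcap-003, which no spliced read joined. The intron before Nnat was not trimmed in this way, so the comparison depends on what is left out. The introns of Nnat were deeper than this surrounding intron, 10.96 and 10.1 times for intron 1 and 10.7 and 12.3 times for intron 2. Part of both is annotated as exon in other Nnat transcripts, so these values are not of intron alone. Nnat exon 3 exceeded it 572 and 488 times.

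Signal was also present next to the start of Nnat. The alternative exon of Blcap-004 was touched by 782 reads in BxC and 569 in CxB, of which 504 and 362 lay wholly inside it, at a mean depth 5.27 and 4.70 times that of the intron beside it. The gap of 70 bases shown above was touched by 325 and 239 reads, of which 18.5% and 18.0% were on the plus strand, but only 22 and 20 lay wholly inside it and the others crossed its ends. No read joined this exon to Blcap exon 2 in either library, against 1576 and 1253 for the usual donor of exon 1. By the study's methods, spliced reads depend on the transcript models that were aligned to. A join outside those models could not be counted. Whether they hold this join is not known here, so its 0 may be fixed by the reference. Upstream of exon 1, the exons of Blcap-005 and Blcap-006 were nearly empty, with 15 and 12 reads in the first, 0 and 2 in the second, and 8 and 4 in the exon of Blcap-006. The 5 kb beyond the annotated start of Blcap held 0 reads in both.

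Spliced reads showed both Nnat messages in both brains. Exon 1 was joined to exon 2 by 218 reads in BxC and 281 in CxB, exon 2 to exon 3 by 378 and 279, and exon 1 directly to exon 3 by 381 and 258. Taking the mean of the 2 inclusion joins, exon 2 was skipped in 56.1% (Clopper-Pearson interval 52.3 to 59.9) in BxC and 48.0% (43.7 to 52.3) in CxB. The counting intervals just miss each other, at 52.29 and 52.27, but the 381 and 258 skipping reads lie on only 145 and 96 lines. The inclusion joins leave out reads from a donor inside exon 2 (22 and 19) and from a cassette exon in intron 1 (11 and 5). Counting these would lower both shares, and the intervals were not computed that way. An interval on an averaged count is also only approximate. No other exon was compared in this way, so there is no background for this gap. In 2 subsets of the same reads, with the same joins left out, the intervals did not overlap either. For reads with at least 8 bases in both blocks, which reach past the 6 shared bases, the shares were 57.6% (53.3 to 61.7) and 48.4% (43.7 to 53.2). For reads on the strand of the transcript they were 62.8% (57.7 to 67.7) and 50.6% (45.1 to 56.2). With each line counted once the intervals overlap, at 59.7% (53.2 to 65.9) and 51.3% (43.9 to 58.7). The inclusion joins differed from each other in BxC, so the share depends on the side from which it is read. Among reads that leave exon 1, 63.6% (59.6 to 67.5) in BxC and 47.9% (43.6 to 52.2) in CxB entered exon 3. Among those that enter exon 3 from exon 1 or from the usual end of exon 2, the shares coming from exon 1 were 50.2% (46.6 to 53.8) and 48.0% (43.8 to 52.4), which overlap.

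**Figure D4:**
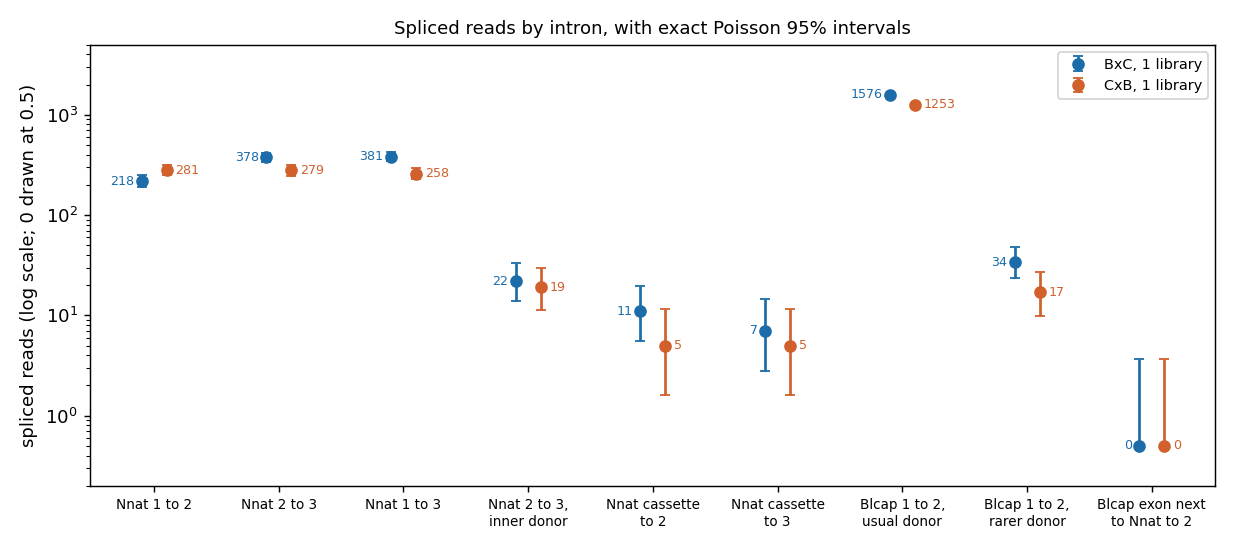
Spliced reads by intron in each library on a log axis, with exact Poisson 95% intervals, where a count of 0 is drawn at 0.5. The 3 main joins of Nnat lie between 218 and 381 reads, the join from the usual donor of Blcap exon 1 at 1576 and 1253, and the alternative exon of Blcap next to Nnat has 0.

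Other forms had fewer reads. A donor 5 bases inside exon 2 was joined to exon 3 by 22 reads in BxC and 19 in CxB, 5.50% (3.48 to 8.21) and 6.38% (3.88 to 9.78) of the reads from exon 2. With each line counted once it took 8.70% (4.57 to 14.7) and 10.6% (5.61 to 17.8). A cassette exon of 88 bases in intron 1 was joined to exon 2 by 11 and 5 reads and to exon 3 by 7 and 5, while 0 reads joined exon 1 to it. Of 13 annotated Nnat introns, 7 had 0 reads in each library, among them 4 gaps of 1 base in the model Nnat-201. Of 7 annotated Blcap introns, 5 had 0. Blcap was spliced mostly from the donor of Blcap-001, with 1576 and 1253 reads, and the donor of Blcap-002 took 34 reads in BxC (2.11%, 1.47 to 2.94) and 17 in CxB (1.34%, 0.78 to 2.14). With each line counted once the latter took 8.07% (4.37 to 13.4) and 6.34% (2.94 to 11.7). Lines compress the deeper joins, since the 1576 reads of Blcap-001 in BxC lie on 148 lines and the 34 of Blcap-002 on 13, so shares of minor forms by lines are raised. No read joined an exon of Nnat to an exon of Blcap. A join outside the authors' transcript models could not be counted, so the counts of 0 in this paragraph may be fixed by the reference.

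The genes differed in how many of their reads were spliced. In Nnat 1025 reads in BxC and 849 in CxB were, or 0.239% and 0.261% of its total, against 5.54% and 5.46% in Blcap. Blcap therefore had more spliced reads than Nnat (1610 and 1270) from far fewer reads in all. At the exon edges, reads that run on into the intron were 14.9% and 15.8% of those crossing the end of Nnat exon 1, and 27.4% and 28.0% at the start of exon 3. At the start of exon 2 they were 13.6% (9.70 to 18.3) and 7.44% (4.78 to 10.96), which overlap, and at its end 5.22% (3.26 to 7.88) and 11.7% (8.35 to 15.7), which do not. The values at the end rest on 21 and 37 unspliced reads, and the 2 edges of this exon differ between the libraries in opposite directions. Edges of other genes were not compared. At the end of Blcap exon 1 they were 13.5% (11.9 to 15.1) and 13.9% (12.2 to 15.8), which include any message spliced at the donor of Blcap-002. At the start of Blcap exon 2 they were only 0.371% (0.136 to 0.806) and 0.314% (0.0856 to 0.802), so the ends of this intron differed by more than the counting error in both libraries.

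Depth fell sharply near the 3′ end of Nnat. It went from 25655 to 778 in BxC and from 20819 to 664 in CxB over 4 bases. This drop of 33.0 and 31.4 times ended 77 bases before the annotated end. Much of the depth before it came from 2 minus-strand starts, with 11649 and 9486 reads in BxC and 9757 and 7267 in CxB. Their right edges lie at the drop, which therefore does not by itself place the end of the message. Depth also fell inside the exon, as from 19716 to 1604 in BxC some 2250 bases from the start of Nnat. A second fall beyond the drop, from 288 to 49 and from 277 to 40, came 63 to 55 bases before the annotated end. At the annotated end itself the depth was 28 and 23. No annotated Nnat transcript had AATAAA or ATTAAA, the most common polyadenylation signals, in its last 50 bases on its own strand. Neither was found in the 60 bases before the drop. The bases between these windows, just before the second fall, were not searched. In Blcap the depth fell 5.08 and 5.68 times, 83 and 82 bases before the annotated end, and here too neither motif was found in the 60 bases before the drop. AATAAA begins 21 bases before the annotated end itself, beyond the drop. The bases of Blcap between the drop and its last 50 bases were not searched either. That end is shown with the motif in capitals, at chr2:157382098-157382127 on the minus strand.
Blcap annotated 3′ end: gaaatgtttAATAAAgctttataaacttta
Over 22380 protein-coding genes, 53.4% had AATAAA and 15.2% ATTAAA in that window, and 65.4% had either. A missing match says only that these letters are not in the window.

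Reads that align equally well elsewhere were not kept by the authors, which removed read starts from both genes. All windows of 36 bases in Nnat exons 1 and 2 and in Blcap exon 1 occur once in mm9, and 97.7% of those in Nnat exon 3 and 90.5% of those in Blcap exon 2 do. At the 184 windows of Blcap exon 2 with a second copy, all of them on chromosome 1, 0 reads were aligned in either library. At the 22 such windows of Nnat exon 3, whose copies lie on chromosome 7, there were 7 reads in BxC and 5 in CxB, while a possible start of the exon held a mean of 218 and 165. The bases there were still covered by reads that begin beside them, at mean depths of 4470 or more in BxC. The longest of these stretches, with 66 windows at chr2:157383771-157383871, lies in the coding part of Blcap, and the most used start of that exon in BxC is the first window after it. In all, 103 of the 226 windows of the coding part have a second copy, against 81 of 1496 in the 3′ UTR. Per window that occurs once, the coding part held 1.05 distinct read positions in BxC and 1.02 in CxB and the 3′ UTR 0.944 and 0.839, of at most 2. An annotated microRNA gene (AL672259.1) lies at chr2:157388097-157388183 on the minus strand, over the end of Nnat exon 3, and its reads cannot be told apart from those of Nnat without strand.

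Among genes that govern ER calcium, the process on which phospholamban and sarcolipin act, none came near the level of Nnat. Since Nnat was 4th of 22380 protein-coding genes, this says nothing particular of the list. Of 16 listed genes, 14 had at least 100 reads in each library, of which 0 reached a 2-fold difference, beside 0.136% of all genes tested, so the count says nothing particular of the list. The median log2 ratio was -0.06, with 10 below 0 and 4 above, beside -0.0011 over all genes. Atp2a2, the most widely expressed SERCA pump, led the list at 36.2 RPKM in BxC and 37.3 in CxB, and Nnat exceeded it 50.3 and 43.5 times. The pumps Atp2a1 and Atp2a3 stood between 0.49 and 0.59 RPKM. Phospholamban (Pln) had 34 reads in BxC and 78 in CxB and sarcolipin (Sln) 93 and 128, at 0.106 and 0.287 RPKM and at 1.40 and 2.27 RPKM. Both small pump inhibitors were thus barely read in libraries where Nnat held 428600 and 325234 reads. The release channels ranged from 0.853 (Itpr2) to 5.67 RPKM (Itpr1) in BxC. The store sensors Stim1 and Stim2 stood at 10.1 and 5.91 RPKM, and the entry channels Orai1, Orai2 and Orai3 at 3.68, 8.46 and 4.23. Summed over the 16 genes the level was 86.9 RPKM in BxC and 87.5 in CxB, so Nnat alone was 20.9 and 18.5 times the list.

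**Figure D5:**
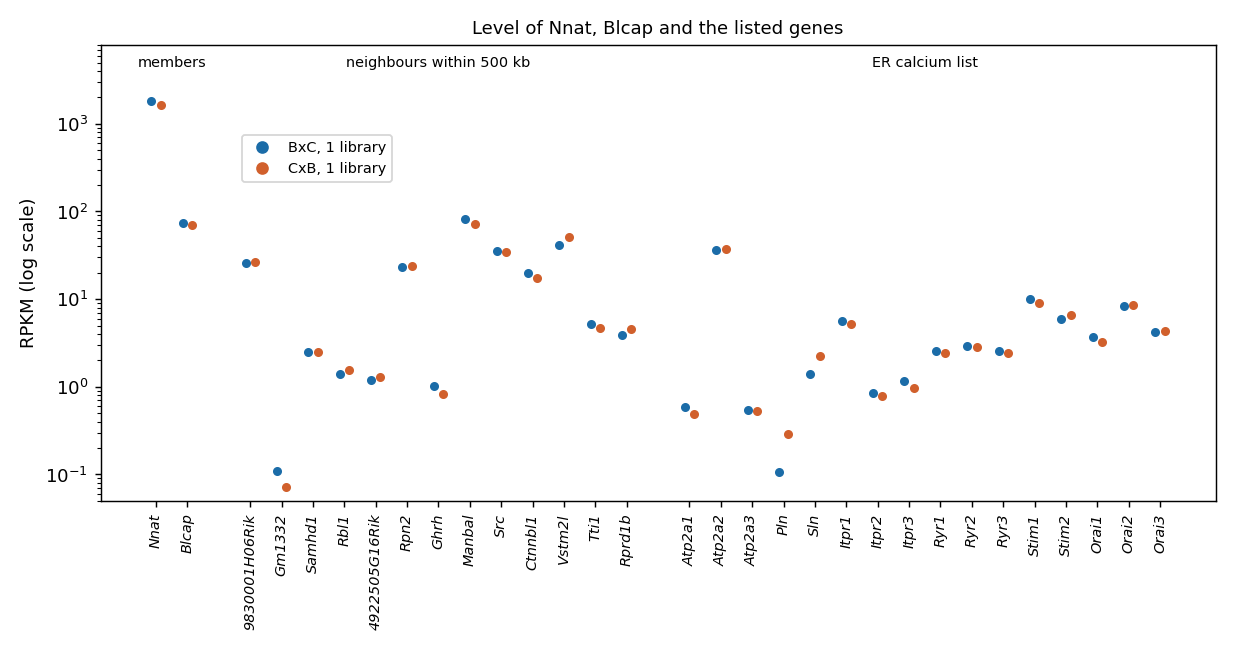
RPKM on a log axis in both libraries for Nnat and Blcap, the 13 protein-coding neighbours in order along the chromosome, and the 16 genes of ER calcium uptake and release. Nnat, at 1817 and 1621 RPKM, lies above every listed gene, and Manbal is the listed gene above Blcap.

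The neighbours on chromosome 2 did not share the high level of Nnat, which few genes anywhere reached. Within 500 kb of Blcap the annotation has 13 other protein-coding genes. The highest, Manbal, stood at 82.5 RPKM in BxC and 71.7 in CxB, just above Blcap, and Nnat exceeded it 22.0 and 22.6 times. The tyrosine kinase gene Src, the nearest at 84.5 kb, stood at 35.04 and 34.4 RPKM, and Vstm2l at 41.5 and 51.8. The growth hormone releasing hormone gene Ghrh had 88 and 60 reads. Of the 13 genes, 11 had at least 100 reads in each library, of which 0 reached a 2-fold difference, again beside 0.136% of all genes. Their log2 ratios ran from -0.20 (Manbal) to 0.32 (Vstm2l) with a median of 0.04, and 5 lay below 0 and 6 above. The ratios of Nnat (-0.17) and Blcap (-0.09) fell inside this range.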

How the data were processed

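Reads 36 bases long were mapped to mm9 by the authors with Novoalign, per the labels and their methods, and unique alignments were kept. Their methods describe several alignments and do not say which one the files hold. The deposited lines hold counts, 1 whole number each, used here as the number of reads. The meaning was inferred from the values. At all starts with at least 4 lines, successive lines alternated between strands, so a line is neither a position nor a sequence. Of the columns, 0 could not be assigned. The deposited catalog gives positions of known imprinted genes.

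Reads were summed over GENCODE vM1 exons of 37310 genes where at least 1 aligned base overlapped, on both strands. No Blcap exon overlaps a Nnat exon, so nothing had to be taken out of Blcap. RPM are reads per 1000000 reads of the library and RPKM are RPM per kilobase of merged exons. Intervals are exact at 95% (Poisson, Clopper-Pearson, binomial for ratios) and cover counting error only. That of the exon 2 skipping share rests on an averaged count and is approximate. The statement that a count of 0 allows up to 3 reads uses a fixed limit, while the exact Poisson interval of 0 reaches 3.69. Neither limit holds for a join that the authors' transcript models may lack. PCR reads without molecular identifiers are not independent molecules. With 1 library per cross, no test was made and no p-value is given. Copies elsewhere were sought with BLAST 2.17.0. Other steps used Python 3.11.15, NumPy 2.4.6, pandas 2.3.3 and SciPy 1.17.1, and the counting was checked on simulated data. Map2 was found under its older symbol Mtap2.

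Named genes are the members, 16 genes of ER calcium handling, coding genes within 500 kb of Blcap, the 3 genes nearest to each member in level, and tissue markers. Other genes named, which stand above Nnat in RPKM or lead a list, were named after their values were seen. The members and lists were chosen with earlier results of these data known. Counting distinct positions was added after seeing the data.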

Additional observations from a re-analysis of the deposited data

Results flagged for a closer look

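Reads were found in 3 stretches outside the exons compared above, each above the 3 reads that a count of 0 allows. They have no control sample, and their part in the results was not tested.

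A copy of the Nnat message without introns lies at chr7:120736448-120737366 of mm9, with 89.6% identity over 923 aligned bases. It held 131 reads in BxC and 120 in CxB, 0.0306% and 0.0369% of the Nnat reads. A shorter stretch beside it, with 89.2% identity over 157 bases, held 2 and 0. Together they match bases 1 to 157 and 235 to 1150 of the message, and so lack exon 2 except for its first 6 bases, which exon 3 shares. The match ends 63 bases before the annotated end of Nnat, which is where the second fall in depth began.

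A copy of Blcap without introns lies at chr1:46067080-46069042, with 91.2% identity over 1987 bases. It held 31 reads in BxC and 89 in CxB, against 29050 and 23275 in Blcap itself.

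Beyond the annotated end of Blcap, at a distance of 2 to 5 kb, 1332 reads in BxC and 963 in CxB were aligned, a log2 ratio of -0.24 (-0.36 to -0.11). The mean depth there was 15.6 and 11.3, against 15.3 and 12.5 in the Blcap intron before Nnat.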

How the results depend on the processing

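No paired analysis was possible because each cross has 1 library. No library was left out for the same reason, and variation between embryos is not covered by any interval.

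The exact RPM levels depend on how reads are weighted. For Nnat in BxC and CxB they were 1126 and 1010 RPM with each line counted once, 92.7 and 104 with distinct positions, 1268 and 1114 on the strand of the transcript only, 3475 and 3087 scaled without chromosome X and mitochondria, and 3281 and 2921 with the exons of the catalog. For Blcap they were 95.7 and 103 (lines), 71.9 and 76.8 (positions), 79.5 and 75.9 (strand), 235 and 221 (without X and mitochondria), 221 and 208 with all aligned bases in exons, and 345 and 334 with the catalog's single block. That block spans the Blcap intron, and only the catalog's 2 Nnat blocks were taken out of it. It therefore still holds reads over Nnat exon 2 and the Nnat introns. The log2 ratio of Nnat was -0.16 by lines, 0.17 by positions and -0.19 by strand. That of Blcap was 0.11 by lines, 0.10 by positions and -0.047 with the catalog's block. By the other scalings and overlaps it stayed inside its interval. Distinct positions are near their ceiling in Nnat, where 92.8% and 91.7% of the possible starts of exon 3 were in use, and at the main joins, which held 38 to 51 of 54 possible positions. The Nnat values by positions, and the shares of joins and strands by positions given below, are therefore no estimates of level, splicing or strand. The cause of the reversed Blcap ratios was not tested.

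By the length of the longest transcript, Nnat ranked 3rd in BxC and 2nd in CxB. Genes at least 2-fold higher and lower in CxB numbered 11 and 10, and became 2 and 1 by lines, 1 and 0 by positions, 4 and 7 by strand, 238 and 210 at a minimum of 10 reads, 2 and 1 at 1000 reads and 1369 and 1296 at 1 read. Exon 2 skipping in BxC and CxB was 52.2% and 50.6% by positions, 62.8% and 50.6% by strand, 59.7% and 51.3% by lines and 57.6% and 48.4% with at least 8 bases in both blocks. The donor of Blcap-002 took 8.07% and 6.34% by lines, 21.4% and 15.4% by positions and 1.30% and 0.769% by strand. The share on the strand of the transcript was 50.3% and 50.4% (Nnat) and 51.7% and 50.7% (Blcap) by lines, and 48.6%, 49.3%, 52.4% and 50.2% by positions.

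The Blcap intron before Nnat held 167 and 125 lines and 166 and 122 positions per kilobase, and the intron after it 261 and 224 lines and 247 and 213 positions. With 1 kb left out beside Nnat and beside the exon of Blcap-003, the remaining 1068 bases of the intron after Nnat held 351 and 378 reads per kilobase. With 1 kb left out at each side, nothing was left of the intron before Nnat, which has no value there.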
